A study of Mus musculus with 12 samples.

Results

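The reticulon family and the Nogo receptor complex were followed on 12 expression arrays of the aged mouse brain. The members were all probes that the array names Rtn1, Rtn2, Rtn3, Rtn4, Rtn4r, Lingo1 or Omg, whatever their values, which gave 13 of 25697 probes and 7 of 18097 gene symbols. The animals were male 3×TgAD mice, which carry mutant human amyloid precursor protein and tau transgenes under the neuronal Thy1 promoter together with a mutant presenilin 1. From 14 to 18 months of age they drank water with amitriptyline (AMI, a tricyclic antidepressant, at 100 µg/g body weight for 4 months) or water alone (vehicle), and both arms were injected with the thymidine analogue BrdU during treatment. RNA of the hippocampus and of the cortex was hybridised to Illumina arrays, with 3 arrays in each of the 4 groups formed by tissue and treatment. No mice without the transgenes were on the arrays, so every value is that of the disease model, and the sources do not say which mouse gave which sample or whether any animals were pooled.

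Reticulons are membrane proteins that bend the endoplasmic reticulum into tubules, and they share a homology domain with a pair of long hydrophobic hairpins. Rtn4 is also called Nogo, and its longest product, Nogo-A, is an inhibitor of neurite outgrowth on the surface of oligodendrocytes. Rtn4r is the Nogo receptor, an anchored surface protein of neurons that binds a loop of Rtn4 and also the myelin proteins Omg and Mag, and it signals through partners such as Lingo1 and the neurotrophin receptor Ngfr to the cytoskeleton of the growth cone. Reticulons also bind the β-secretase Bace1, and Rtn3 is found in dystrophic neurites around amyloid plaques.

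Rtn4 and Rtn1 had 4 probes each and the other genes 1 each. Of the 4 Rtn4 probes, ILMN_2699645 begins at base 3318 of transcript variant 1 and lies in an exon on chromosome 11, from 29633785 to 29633834 on the plus strand. ILMN_3140071 is placed at base 3332 of an earlier version of that transcript record and spans an exon junction, in 2 pieces between 29633799 and 29636367. These positions are those of the array annotation, which names no genome build. It sets the starts of the pair 14 bases apart, while the printed sequences are offset by 9, so the positions hold only to within a few bases. Both probes lie in the coding stretch shared by the Rtn4 isoforms, at the start of the loop that the Nogo receptor binds, so neither tells Nogo-A from the shorter products. They share 41 of their 50 bases, shown in capitals below, and are for that reason not independent measurements of the transcript.

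ILMN_2699645: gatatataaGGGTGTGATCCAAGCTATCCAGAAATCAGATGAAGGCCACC
ILMN_3140071: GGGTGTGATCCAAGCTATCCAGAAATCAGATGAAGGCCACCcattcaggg

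The third Rtn4 probe, ILMN_1239786, has no genome position in the array annotation, which sets it at base 93 of another Rtn4 transcript record. The fourth, ILMN_2692728, is annotated to transcript variant 5 and was detected on 0 of the 12 arrays, so it was not tested, and its signals of 49.7 to 70.1 were close to those of undetected probes. Of the Rtn1 probes, ILMN_1254697 lies in transcript variant 1, the long form (chromosome 12, 73409577 to 73409626, minus strand), and ILMN_3040710 in variant 2, a short form (73337523 to 73337572). The other 2 Rtn1 probes, ILMN_2758070 and ILMN_3115490, overlap by 23 bases at the 3′ end of the gene, between 73313087 and 73313163. Rtn2 (chromosome 7), Rtn3 (chromosome 19), Rtn4r (chromosome 16), Lingo1 (chromosome 9) and Omg (chromosome 11) were each read at 1 place, and Omg lies inside an intron of Nf1 on the opposite strand. Detection, a call of the scanner software against its negative controls at p of 0.05 or less, was made on all 12 arrays for 11 of the 13 probes and on 9 arrays for Rtn4r, 5 hippocampal and 4 cortical. The remaining 12 member probes were tested in each tissue.

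All levels below are log2 signals after z normalization, in which 0 is the mean of all probes of an array and negative values lie under it, so a level ranks arrays for 1 probe and does not rank genes. The arrays detected 12588 to 13280 probes each. Median signals of undetected probes were 52.2 to 63.3 in the hippocampus and 65.1 to 73.2 in the cortex, and the highest signals 35958 to 53324 and 24573 to 27400. The 2 tissues were read with different software, so tissue and array run cannot be told apart. Most marker genes followed the tissue labels. The mean level of the hippocampal markers was 2.79 to 3.28 on hippocampal and 0.79 to 1.12 on cortical arrays, and that of the cortical markers 1.33 to 1.58 and 2.32 to 2.47. Of 6 hippocampal marker probes 5 passed as higher in the hippocampus in each treatment, while Wfs1 lay lower (-0.56 in vehicle and -0.54 in AMI mice, not passing). Of 9 cortical marker probes 5 in vehicle and 7 in AMI mice passed as lower there, and Lmo4 lay higher, not passing. The probes for the general neuronal markers Snap25 and Nefl were detected on no array, and 5 of the 8 neuronal marker probes could be tested.

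In the cortex, Rtn4 signals were higher in the AMI-treated mice, by 1.59-fold on the junction probe and by 1.52-fold on the probe without a genome position. On both probes the groups did not overlap after normalization. On the third tested probe, which shares most of its bases with the junction probe, Rtn4 signals were higher by 1.26-fold and the groups overlapped. These differences did not pass Benjamini-Hochberg adjustment over the 12944 probes tested in the cortex. The study lists Rtn4 among the genes changed by AMI in the cortex on these same arrays, so its direction here is not independent evidence. The study also reports more cortical Rtn4 protein after AMI by western blot, which the RNA signals here do not measure. In the hippocampus the 3 tested Rtn4 probes differed by 1.06- to 1.14-fold.

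The junction probe ILMN_3140071 read 1.81, 1.12 and 2.0 on the 3 cortical vehicle arrays. It read 2.46, 2.37 and 2.10 on the 3 cortical AMI arrays. Each AMI array exceeded each vehicle array, and the spread was wider in the vehicle group, where the second array was lowest. The log2 difference was 0.67 ± 0.21 (SE, n = 3 against 3), with an unadjusted p of 0.0131 and an adjusted p of 0.756 by limma. Before normalization the signals were 289 to 473 in vehicle and 467 to 973 in AMI mice, so the ranges overlapped at their edge.

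The probe without a genome position, ILMN_1239786, read 0.62, -0.07 and 0.58 on the cortical vehicle arrays. It read 1.08, 1.02 and 0.82 on the AMI arrays. The groups were again apart, and the second vehicle array was again the lowest. The difference was 0.60 ± 0.18 (SE, n = 3 against 3; unadjusted p = 0.0104, adjusted p = 0.756 by limma). Before normalization its signals were 133 to 215 in vehicle and 212 to 364 in AMI mice, which overlapped. The exonic probe ILMN_2699645 read 1.01, 0.34 and 0.82 in vehicle and 1.12, 1.1 and 0.95 in AMI mice. Its groups overlapped, and its difference of 0.33 ± 0.16 (SE, n = 3 against 3; adjusted p = 0.789 by limma) was about the size of the spread.

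The Rtn4 values depended on 1 array. Without the second cortical vehicle array, the differences were 0.41 for ILMN_3140071, 0.38 for ILMN_1239786 and 0.14 for ILMN_2699645. Leaving out any other single cortical array left the junction probe between 0.60 and 0.85. Over the arrays of both tissues, after the mean of each tissue was subtracted, the Rtn4 signals of the junction probe correlated at r = 0.91 with ILMN_1239786 and at r = 0.81 with ILMN_2699645 (Pearson, a description over 12 arrays that share their normalization).

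**Figure D1:**
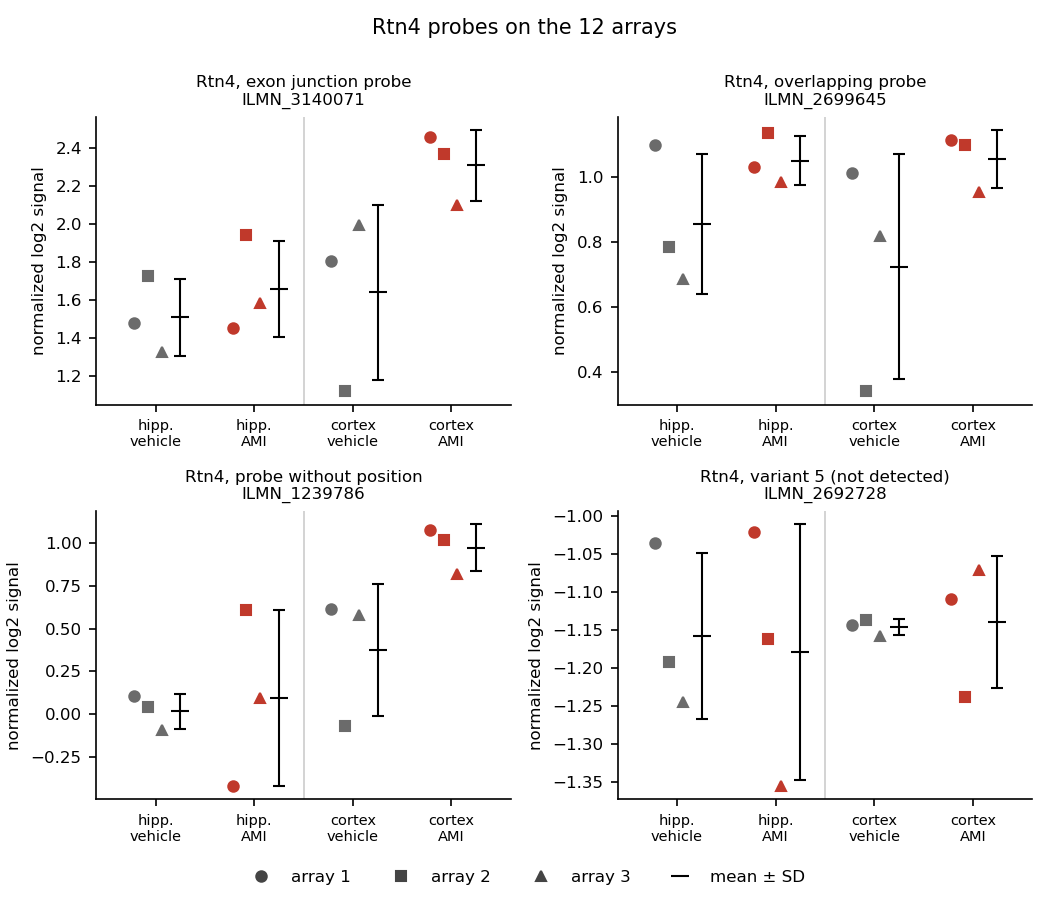
Normalized log2 signal (vertical axes, each panel with its own range) of the 4 Rtn4 probes on the 12 arrays, by tissue and treatment; points are arrays, shapes their numbers, and black bars the mean ± SD of 3 arrays. On ILMN_3140071 and ILMN_1239786 the 3 cortical AMI arrays lie above all 9 other arrays, and ILMN_2692728 was detected on 0 arrays.

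In the hippocampus the junction probe of Rtn4 read 1.48, 1.72 and 1.32 in vehicle and 1.45, 1.94 and 1.59 in AMI mice. ILMN_1239786 read 0.10, 0.04 and -0.10 in vehicle and -0.42, 0.61 and 0.09 in AMI mice, and ILMN_2699645 read 1.1, 0.78 and 0.69 against 1.03, 1.14 and 0.99. The groups overlapped on each of the 3 probes. The differences were 0.15 ± 0.15, 0.08 ± 0.22 and 0.19 ± 0.12 (SE, n = 3 against 3), all with an adjusted p of 1.0 by limma. The hippocampal minus the cortical AMI difference was -0.52 ± 0.29 for ILMN_3140071 (SE; unadjusted p = 0.0955, adjusted p = 1.0 by limma on the 12 arrays), -0.52 ± 0.32 for ILMN_1239786 and -0.14 ± 0.22 for ILMN_2699645. A difference in the response of Rtn4 between the tissues was thus not called. In this comparison 0% of the 12430 probes passed the adjusted threshold and 3.03% had an unadjusted p under 0.05, among them 0 of the 12 member probes.

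By its means the junction probe was ordered hippocampal vehicle (1.51 ± 0.20, SD, n = 3), cortical vehicle (1.64 ± 0.46), hippocampal AMI (1.66 ± 0.25) and cortical AMI (2.31 ± 0.19), and the first 3 of these overlapped.

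Across the 12 member probes, AMI and vehicle differed at an adjusted p under 0.05 on 0 probes in the cortex, where 0% of all probes tested passed. At an unadjusted p under 0.05, 3 member probes were higher and 0 lower, against 4.36% of all probes tested higher (564 of 813 such probes, with 408 of 856 under quantile normalization and 393 of 433 under median centring). The 3 AMI values exceeded every vehicle value for 2 member probes, both of Rtn4, against 8.1% of all probes, and no member lay the other way. Of 12 member differences 7 were positive, with a median of 0.06 beside 0.02 over all probes tested. In the hippocampus 0 of 12 probes passed, with 0% of 13163 probes tested. No member probe had an unadjusted p under 0.05, against 1.44% of all probes higher at that level (190 of 309, with 266 of 581 under quantile normalization and 53 of 72 under median centring), and for none were the groups apart, against 4.38% of all probes with the AMI arrays above. There the median was 0.06 beside 0.01 over all probes, with 8 of 12 differences positive.

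The third probe with a small unadjusted p in the cortex was that of the long form of Rtn1, a reticulon of neurons and neuroendocrine cells. ILMN_1254697 read 0.36, 0.41 and 1.01 in cortical vehicle mice and 1.31, 1.01 and 0.86 in AMI mice. The third vehicle array lay within the AMI range, so the groups overlapped. The difference was 0.47 ± 0.19 (SE, n = 3 against 3; unadjusted p = 0.0373, adjusted p = 0.769 by limma), and it was 0.34 without the first AMI array and 0.68 without the third vehicle array.

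In the hippocampus the same Rtn1 probe, ILMN_1254697, read 0.48, 0.52 and 0.59 in vehicle and 0.54, 0.94 and 0.77 in AMI mice. That difference, 0.22 ± 0.12 (SE), was the highest among the members in this tissue (unadjusted p = 0.0889, adjusted p = 1.0 by limma). The fit above did not pair the arrays. Hippocampal arrays of the same number tended to deviate together, with little margin over another number for the second vehicle array. Within numbers the AMI array was higher in 3 of 3 pairs. With the number as a block the unadjusted p was 0.0375 and the adjusted p 0.609 by limma, and 1063 probes of the whole array had an unadjusted p under 0.05, against 309 without the block.

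The other Rtn1 probes did not move with the long form. The short form read by ILMN_3040710 differed by 0.13 ± 0.12 in the cortex and -0.01 ± 0.10 in the hippocampus (SE). The overlapping 3′ probes ILMN_2758070 and ILMN_3115490 gave -0.14 ± 0.21 and -0.09 ± 0.18 in the cortex and 0.00 ± 0.20 and 0.04 ± 0.19 in the hippocampus. After the mean of each tissue was subtracted, these 2 correlated with each other at r = 0.98 over the 12 arrays, and with the long form probe at r = -0.66 and r = -0.58. Of the overlapping 3′ probes, ILMN_2758070 is annotated to variant 1 and ILMN_3115490 to variant 2, though both lie at the same 3′ end. The probes of the long form, the short form and the 3′ end need not read the same transcripts. A single value for the gene would depend on the probe chosen.

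Rtn2, a reticulon best known from muscle and motor axons, differed by -0.04 ± 0.10 in the cortex and -0.12 ± 0.17 in the hippocampus (SE, n = 3 against 3). Its 3 cortical vehicle arrays lay within 2.32 to 2.36, while its hippocampal vehicle arrays ran from 1.73 to 2.35. Rtn3, which binds and restrains Bace1, differed by -0.07 ± 0.20 and -0.14 ± 0.21. Its AMI arrays ran from 5.47 to 6.29 in the cortex and from 5.01 to 5.81 in the hippocampus, wider than the vehicle arrays (5.91 to 6.12 and 5.30 to 5.77).

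**Figure D2:**
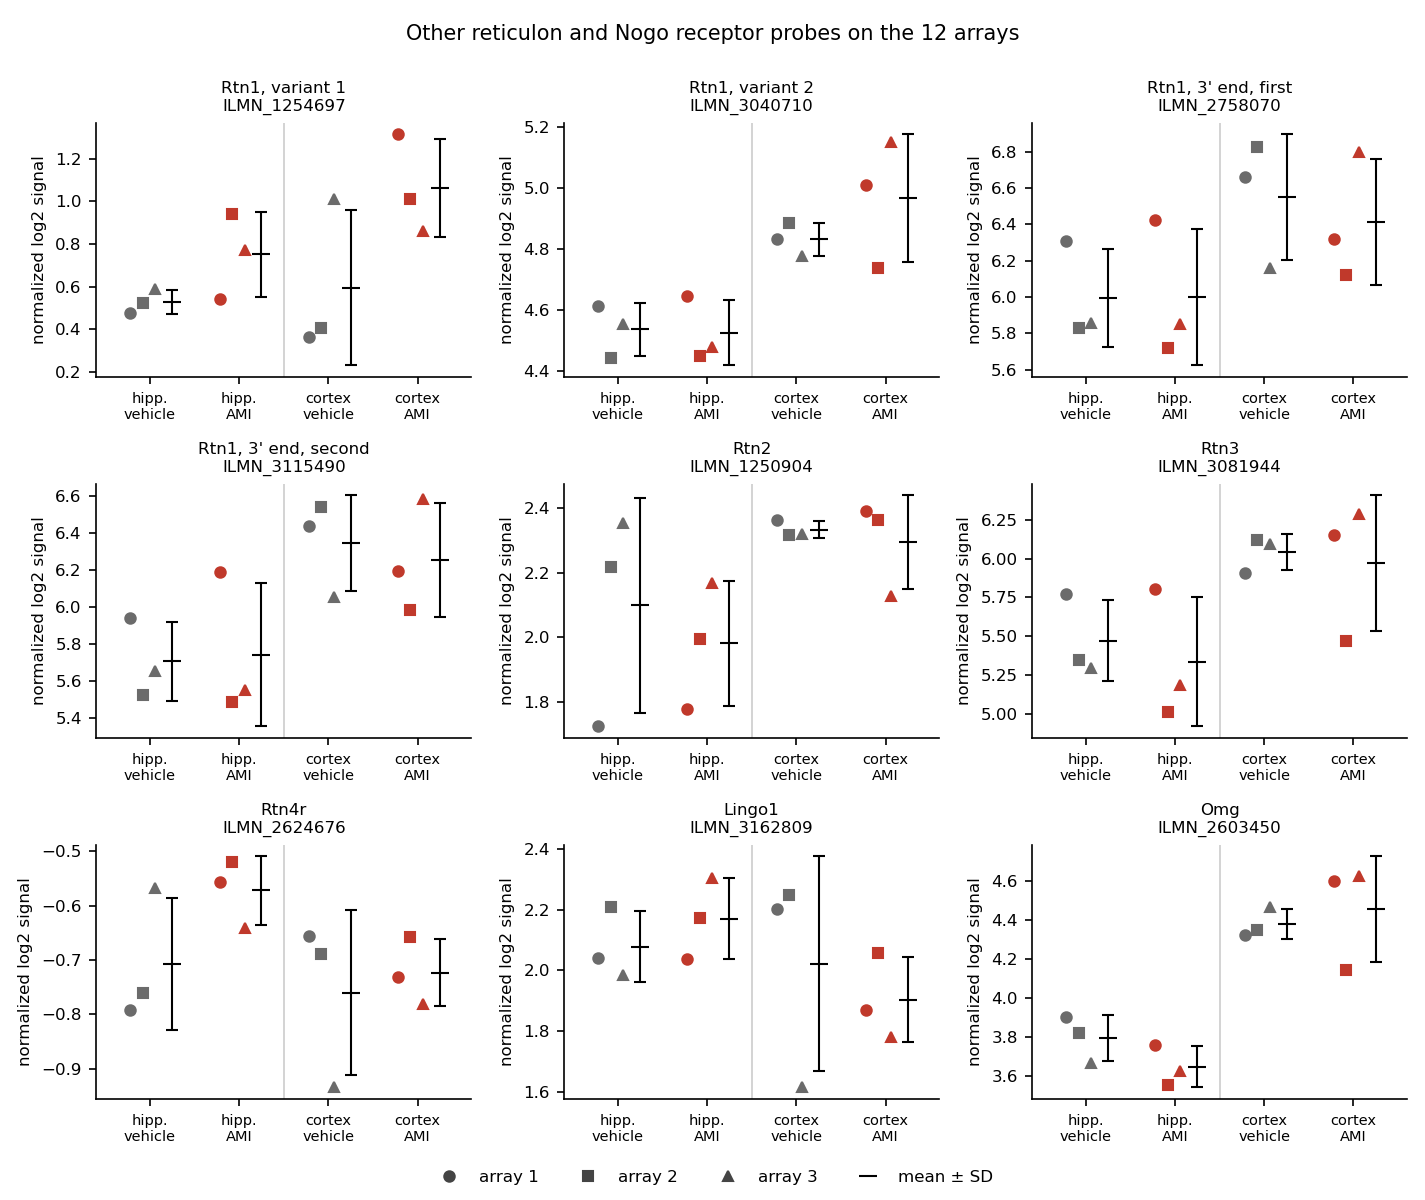
Normalized log2 signal (vertical axes, each panel with its own range) of the other 9 member probes on the 12 arrays; points are arrays, shapes their numbers, and black bars the mean ± SD of 3 arrays. For Omg and for Rtn1 ILMN_3040710 all 6 hippocampal arrays lie below all 6 cortical arrays, and for Rtn1 ILMN_1254697 the third cortical vehicle array lies among the AMI arrays.

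The Nogo receptor itself was dim. Rtn4r signals were 72.0 to 110 before normalization on all 12 arrays, little above those of undetected probes, which limits the changes that could be seen. Its normalized level was -0.79 to -0.57 in hippocampal vehicle mice and -0.64 to -0.52 in hippocampal AMI mice, a difference of 0.13 ± 0.10 (SE, n = 3 against 3; adjusted p = 1.0 by limma). In the cortex it was -0.93 to -0.66 and -0.78 to -0.66, a difference of 0.04 ± 0.11.

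Lingo1, the leucine-rich repeat coreceptor of Rtn4r and a brake on myelination, read 1.98 to 2.21 in hippocampal vehicle and 2.04 to 2.30 in hippocampal AMI mice. The cortical arrays read 1.62 to 2.25 and 1.78 to 2.06, with the third vehicle array lowest. The differences were 0.09 ± 0.11 and -0.12 ± 0.17 (SE).

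Omg, a myelin-associated ligand of the receptor that neurons and oligodendrocytes express, read 3.90, 3.82 and 3.67 in hippocampal vehicle and 3.76, 3.55 and 3.63 in hippocampal AMI mice. The difference of -0.15 ± 0.10 (SE, n = 3 against 3; unadjusted p = 0.190, adjusted p = 1.0 by limma) was the lowest among the members, and the groups overlapped. Within numbers the AMI array was lower in 3 of 3 pairs, and with the number as a block the unadjusted p was 0.102 and the adjusted p 0.660 by limma. Most oligodendrocyte marker probes also had negative differences in this tissue. Of 17 marker probes tested, 1 was positive and 6 were lower in AMI mice at an unadjusted p under 0.05, 0 passed adjustment, and the median was -0.34. Of all 13163 probes tested in this tissue, 309 had an unadjusted p under 0.05, of which 190 were higher in AMI mice. The mean level of the oligodendrocyte marker probes was 2.53 to 2.85 on hippocampal AMI arrays and 2.72 to 3.19 on vehicle arrays. By number it was lower on the first and second AMI arrays and higher on the third (2.85 against 2.72). Their part in the Omg value was not tested. In the cortex Omg read 4.33, 4.35 and 4.47 in vehicle and 4.60, 4.15 and 4.63 in AMI mice, a difference of 0.08 ± 0.14, where the median of the oligodendrocyte markers was 0.01. Fewer cells of a type and less RNA per cell cannot be told apart in such tissue samples.

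**Figure D3:**
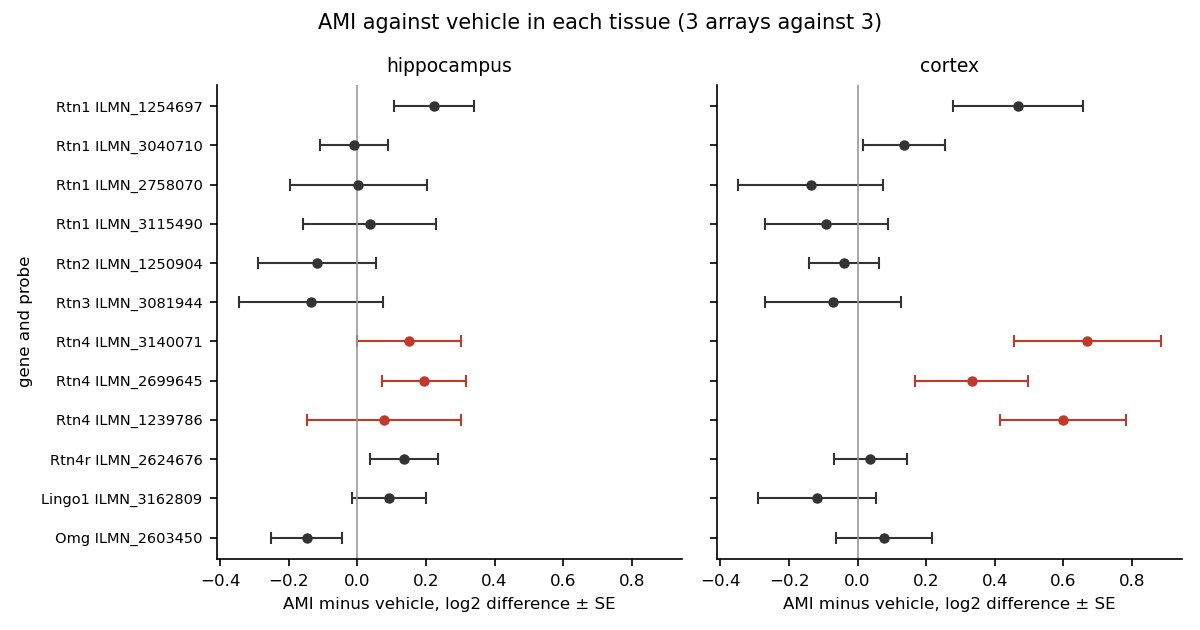
AMI minus vehicle log2 difference (horizontal axis) with its standard error for the 12 tested member probes (vertical axis), 1 panel for each tissue, 3 arrays against 3; Rtn4 probes are in red. The Rtn4 probes lie at 0.08 to 0.19 in the hippocampus and at 0.33 to 0.67 in the cortex, and no point passed adjustment.

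Between the tissues, Omg had the lowest adjusted p of the members in each treatment, and both calls were lost with median centring. In vehicle mice it was lower in the hippocampus by 0.59 ± 0.13 on the log2 scale (SE, n = 3 against 3), an adjusted p of 0.00488 by limma on the 12 arrays, and in AMI mice by 0.81 ± 0.13, an adjusted p of 0.000665. All 6 hippocampal arrays (3.55 to 3.90) lay below all 6 cortical arrays (4.15 to 4.63). In AMI mice 8 of 17 oligodendrocyte marker probes passed as lower in the hippocampus and 2 as higher, and in vehicle mice 1 and 1. With median centring 0 of the 8 and both of the 2 still passed in AMI mice, and in vehicle mice 0 of the lower and 1 of the higher. Their part was not tested.

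The second call in vehicle mice was the 3′ probe of Rtn1, ILMN_3115490, lower in the hippocampus by 0.64 ± 0.21 (SE; adjusted p = 0.0375 by limma). In these mice it read 5.94, 5.53 and 5.65 on hippocampal arrays against 6.44, 6.54 and 6.05 on cortical ones. In AMI mice the same probe was lower by 0.51 ± 0.21, which did not pass (adjusted p = 0.0817), and the calls there beside Omg were the short form of Rtn1 and a pair of Rtn4 probes. ILMN_3040710 of Rtn1 was lower by 0.44 ± 0.11 (SE; adjusted p = 0.0102 by limma), ILMN_3140071 of Rtn4 by 0.65 ± 0.20 (adjusted p = 0.0326) and ILMN_1239786 by 0.88 ± 0.23 (adjusted p = 0.0128). The Rtn4 values rest on the same 3 cortical AMI arrays as the AMI comparison in the cortex. In vehicle mice the Rtn4 differences were -0.13 ± 0.20 and -0.36 ± 0.23, and the overlapping probe ILMN_2699645 gave 0.13 ± 0.15 and -0.01 ± 0.15 in vehicle and AMI mice.

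In all, 2 of 12 member probes were lower in the hippocampus and 0 higher in vehicle mice, against 10.1% of all 13677 probes tested lower. In AMI mice 4 were lower and 0 higher, against 11.9% of all probes lower. The median of the member differences was -0.27 in vehicle and -0.43 in AMI mice, beside 0.04 and 0.02 over all probes. Rtn3 missed the threshold in both (-0.57 ± 0.23, adjusted p = 0.0836, and -0.63 ± 0.23, adjusted p = 0.0546 by limma). It passed as lower in both under quantile normalization (adjusted p = 0.0137 in vehicle and 0.00149 in AMI mice by limma) and turned positive with median centring. Rtn2 differed by -0.23 ± 0.15 and -0.31 ± 0.15, Lingo1 by 0.06 ± 0.15 and 0.27 ± 0.15 and Rtn4r by 0.05 ± 0.10 and 0.15 ± 0.10, none called. The mean level of the neuronal markers was 4.32 to 4.74 on hippocampal and 4.74 to 5.07 on cortical arrays, and their part was not tested.

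The tissue differences changed with the scaling of the arrays. When log2 signals were centred on each array's median and not rescaled, 0 member probes passed in either treatment, and the median difference of all probes tested rose to 0.18 in vehicle and 0.20 in AMI mice. The median of the member differences turned positive, at 0.12 in vehicle and 0.12 in AMI mice, and lay nearer to that of all probes. The share of all adjusted calls that were higher in the hippocampus rose from 59.7% to 87.3% in vehicle and from 55.8% to 84.0% in AMI mice. Under that scaling the difference of Omg was -0.05 in vehicle and -0.27 in AMI mice, while the bright probes of Rtn1 and Rtn3 turned positive, from 0.08 to 0.36. Relative to that median of all probes, Omg lay lower under both scalings in both treatments. With median centring Rtn3 (0.15 in vehicle and 0.08 in AMI mice) also lay under it, by an amount that was not tested. Rtn1 ILMN_3040710 (0.30) and ILMN_2758070 (0.21) lay above it in vehicle mice, and ILMN_2758070 (0.36) and ILMN_3115490 (0.23) in AMI mice.

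**Figure D4:**
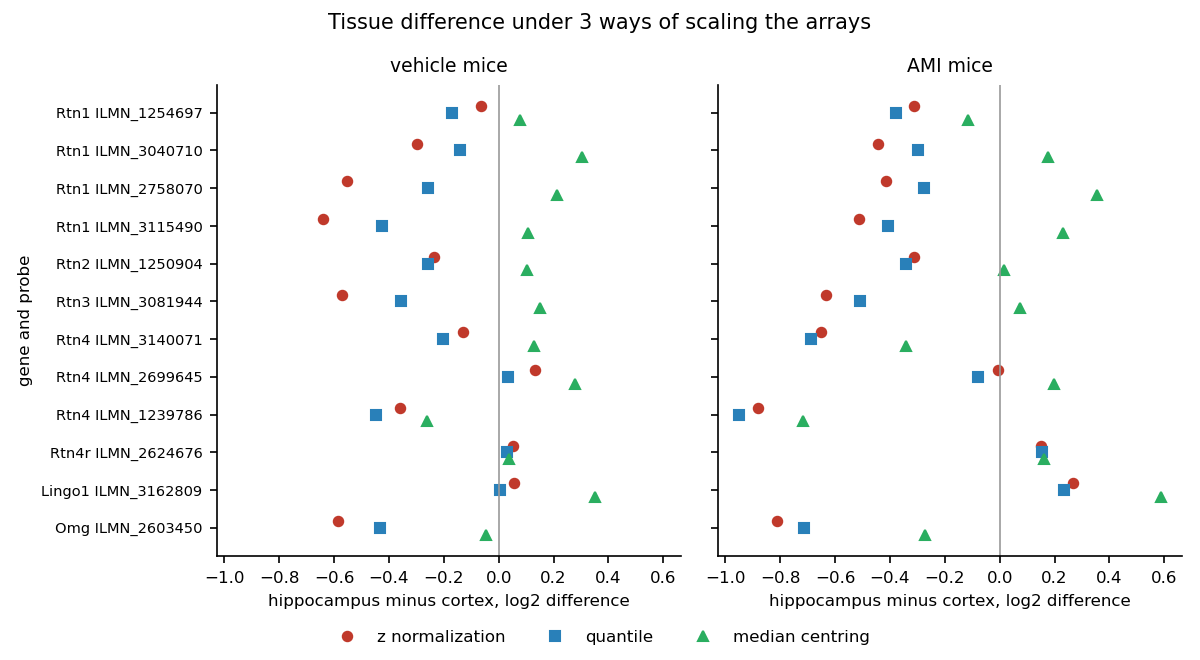
Hippocampus minus cortex log2 difference (horizontal axis) of the 12 tested member probes (vertical axis) in vehicle and in AMI mice under z normalization, quantile normalization and median centring; points are fitted differences, 3 arrays against 3. Omg lies left of 0 under all 3, at -0.59, -0.43 and -0.05 in vehicle mice, and the probes of Rtn1 and Rtn3 change sides in vehicle mice with median centring.

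Of 19 symbols of Nogo receptor partners, ligands and effectors, 15 were on the array with 26 probes. AMI and vehicle differed on 0 of 17 probes tested in the hippocampus and 0 of 18 in the cortex after adjustment, with medians of 0.06 and -0.02. At an unadjusted p under 0.05, 1 was higher and 1 lower in the hippocampus and 1 higher in the cortex. Of all probes tested, 309 of 13163 in the hippocampus and 813 of 12944 in the cortex had such a p. The tissues differed on 6 of 19 probes in vehicle mice, against 25.1% of all probes tested, and on 6 of 19 in AMI mice, against 27.0%. Lgi1, a secreted ligand of the ADAM22 receptor, on ILMN_2821730 (1.05 ± 0.13, SE, log2), the receptor paralogue Rtn4rl1 (0.63 ± 0.08) and the semaphorin response protein Dpysl2 on ILMN_2451389 (0.41 ± 0.09) were higher in the hippocampus. The myelin ligand Mag, which is also among the oligodendrocyte markers (-0.56 ± 0.19), the other paralogue Rtn4rl2 (-0.34 ± 0.11) and Ngfr (-0.31 ± 0.11) were lower. In AMI mice Lgi1 (1.22 ± 0.13), Rtn4rl1 (0.80 ± 0.08), Dpysl2 (0.61 ± 0.09) and the exchange factor Kalrn (0.47 ± 0.16) were among the genes higher in the hippocampus, and Mag (-1.03 ± 0.19) was among those lower. The second Lgi1 probe did not pass (0.28 in vehicle and 0.10 in AMI mice). Of the other Dpysl2 probes, neither of which passed, ILMN_1240571 was at 0.21 and 0.28 and ILMN_2949596 at -0.19 and -0.17, so the probes of Dpysl2 differed in sign.

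Of 18 symbols of reticulon partners and other proteins that shape the endoplasmic reticulum, 15 were on the array with 23 probes. After adjustment AMI and vehicle differed on 0 of 18 probes tested in the hippocampus and 0 of 17 in the cortex, with medians of 0.01 in each. No gene of either list had its AMI arrays on one side of its vehicle arrays in both tissues. Between the tissues 5 of 18 probes passed in vehicle and 8 of 18 in AMI mice, beside the same 25.1% and 27.0% of all probes. Bace1, the β-secretase, was higher in the hippocampus by 0.62 ± 0.15 in vehicle and 0.60 ± 0.15 in AMI mice (SE, log2). The translocon subunit Sec61b was higher on both of its probes, by 0.72 to 0.80 in vehicle mice. Reep1, a hairpin protein of the tubular network, was lower by 0.56 ± 0.10 and 0.50 ± 0.10. Arl6ip2, the fusion GTPase now called atlastin 2, was lower on ILMN_3138157 by 0.42 ± 0.13 and 0.44 ± 0.13, and in AMI mice also on a second probe by 0.98 ± 0.20. The other 2 Arl6ip2 probes did not pass (0.10 and -0.06 in vehicle, 0.17 and -0.14 in AMI mice). In AMI mice Reep6 was higher by 0.39 ± 0.13 on ILMN_2661650, while its second probe was at -0.01, and at -0.20 in vehicle mice with its groups apart, not passing. Tmem33 was lower by 0.41 ± 0.14 on ILMN_1234558 in AMI mice, with its second probe at -0.20, not passing. The tissue differences named for both lists kept their sign under quantile normalization, median centring and neqc. With median centring those of Mag, Ngfr, Rtn4rl2, Reep1, Tmem33, Reep6 and Arl6ip2 ILMN_3138157 no longer passed, nor those of Sec61b in AMI mice, and Mag and Reep1 lay at -0.04 and -0.07 in vehicle mice. Mag in vehicle mice did not pass under quantile normalization or neqc either, nor Reep6 under neqc.

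The probes most like each member were found by Pearson correlation over the 12 arrays after the mean of each tissue was subtracted, among 12430 probes tested in both tissues, using the brightest probe of each gene. For Rtn4 they were those of Atp6ap2 (r = 0.985), Srp54 (0.981) and Pcdh9 (0.977), and for Rtn1 they included those of Atp5g3 (0.952) and Tubb2c (0.944). Rtn2 was most like Ilk (0.973), Nnat (0.970) and Kcnc4 (0.929), and Rtn3 like EG622339 (0.972), LOC100045981 (0.970) and Gm1821 (0.970). Lingo1 was most like Rgs17 (0.955), E2f4 (0.949) and Cmtm5 (0.938), Omg like Bop1 (0.900), Fbxo2 (0.884) and Hsbp1 (0.884), and the dim Rtn4r like Mas1 (0.893), Nr6a1 (0.865) and Ppp3cc (0.853). These are the highest of many correlations over few arrays that share their normalization, and they are given as a description.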

How the data were processed

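Total RNA was hybridised to Illumina MouseRef-8 arrays, 12 in all, mapped to 4 groups of 3 by their labels. The authors deposited, per the file headers, the mean bead signal of each probe as a linear intensity, neither normalized nor background-subtracted. For every probe the deposited tables also hold the detection p-value of each array. The labels name BeadStudio 3.4 for the hippocampus and GenomeStudio 1.1.1 for the cortex. Nothing is given on chips, and the probe annotation names no genome build. The 7 genes, the partner lists and the marker lists were chosen with earlier results of these data known.

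Array by array, the log2 signals were z normalized (mean 0, SD 1 over all probes), as the study's methods state, and brought back to the log2 scale with a factor of 1.60, the average SD. A probe was tested in a tissue when its detection p was 0.05 or less on 3 or more of the 6 arrays. Two-sided tests were made with limma (version 3.58.1, R version 4.3.3), using lmFit and eBayes, with Benjamini-Hochberg adjustment over all tested probes and a threshold of 0.05. AMI and vehicle were compared within a tissue, and tissues within a treatment and the interaction on all 12 arrays. Each member probe was kept apart. Genes of the partner lists were named where they passed the adjusted threshold in a comparison. Some genes that this or the likeness rule would name are not reported here. The fit was tested on data simulated from these arrays and recovered the mean sizes put in, while many changes of the smallest size were not called. The simulated arrays had independent noise and no differences of scale, array run or number, so the test does not cover these. Replicates are arrays numbered in the labels, so p-values measure the spread between them, and an exact permutation test of 3 against 3 cannot give a p under 0.1. The number of arrays limits the precision.

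Each hippocampal array correlated best with that of its own number (deviations from the group means, 0.61, 0.30 and 0.29). For the second vehicle array the third AMI array was close, at 0.28. The numbers were thus taken as a possible pairing, from the data alone. The main fits did not pair, and the number entered only as an alternative. In the cortex the values were -0.06, 0.33 and 0.33, and the numbers were not taken to pair. There the first vehicle array was closer to the second AMI array (0.27). Alternatives were the normalization (quantile, median centring, or neqc at offset 16), other detection filters, trended and robust variances, array weights, the number as a block, a random block, fits on fewer or more arrays, each array left out, the methods' t-test and the study's cutoffs, with and, as a choice made after seeing the data, without its false discovery rate. Tables and figures were made in Python 3.11.15 (numpy 2.4.6, pandas 2.3.3, scipy 1.17.1, matplotlib 3.10.9), and blocks were fitted with statmod 1.5.0.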

Additional observations from a re-analysis of the deposited data

How the results depend on the processing

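The Rtn4 differences in the cortex kept their sign under every alternative run, at 0.60 to 0.82 for ILMN_3140071, 0.51 to 0.69 for ILMN_1239786 and 0.26 to 0.35 for ILMN_2699645, with each cortical array left out at 0.41 to 0.85, 0.38 to 0.72 and 0.14 to 0.48, and their adjusted p was lowest with array weights (0.0518 and 0.0592 for the first 2) and 0.999 with median centring. No member passed adjustment for AMI in either tissue or for the interaction under any alternative. With the study's cutoffs for z ratio and p but no false discovery rate, 3 member probes were called in the cortex and 0 in the hippocampus. Leaving out the false discovery rate was a choice made after seeing the data. Of all probes tested, 813 of 12944 in the cortex and 309 of 13163 in the hippocampus had an unadjusted p under 0.05, before the z ratio cutoff. By the study's full cutoffs 0 member probes were called in both tissues. Over all probes the cortex gave 2 adjusted calls with neqc, with trended and robust variances and with array weights, and 3 by the study's cutoffs, against 0. The number as a block changed no member's call for AMI. In the cortex, where not every array correlated best with its own number, it gave 4 member probes and 1125 of all probes an unadjusted p under 0.05, against 3 and 813. Between tissues in AMI mice the block lost Rtn4 ILMN_3140071 (adjusted p = 0.0679 by limma) and gained Rtn3 (0.0359), which left 4 calls.

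The tissue calls among members were 2 in vehicle and 4 in AMI mice. They numbered 0 and 0 with median centring, 5 and 9 with array weights, and 1 and 0 with the methods' t-test (1112 and 1531 of all probes, against 3433 and 3694 by limma, and 6787 in AMI mice with array weights). Among the alternatives in AMI mice Lingo1 was also called, as higher in the hippocampus (lowest adjusted p = 0.00874 by limma). In vehicle mice 1 was called without a detection filter and 1 with trended and robust variances. Leaving out 1 array gave 1 to 4 and 2 to 5. Rtn1 ILMN_3115490 was not called in vehicle mice without the first or second cortical vehicle array, the second hippocampal or the third hippocampal vehicle array or the first cortical AMI array. In AMI mice Rtn4 ILMN_3140071 was not called without the first or the third hippocampal AMI array or the first or second cortical one, nor ILMN_1239786 without the first cortical AMI array (adjusted p = 0.0526 by limma). Omg was called without any 1 array and lost its call with median centring in both treatments, and with the methods' t-test in AMI mice.

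Signs turned for uncalled differences and, with median centring, for 2 called ones of Rtn1. In the hippocampus the AMI difference of Rtn1 ILMN_3040710 was 0.059 with quantile normalization, 0.14 with median centring and 0.060 with neqc, that of Rtn3 was 0.023 with median centring, and those of Rtn1 ILMN_3115490 and ILMN_2758070 were -0.016 and -0.026 with array weights. In the cortex Rtn1 ILMN_3115490, ILMN_2758070 and Rtn3 were at 0.075, 0.076 and 0.081 with quantile normalization, at 0.088, 0.048 and 0.097 with median centring and at 0.076, 0.078 and 0.082 with neqc. Rtn2 was at 0.042 with median centring and 0.0086 with array weights, which also put Rtn3 at 0.098 and Rtn4r at -0.035. With median centring the tissue difference in vehicle mice was 0.11 for Rtn1 ILMN_3115490, 0.078 for ILMN_1254697, 0.30 for ILMN_3040710, 0.21 for ILMN_2758070, 0.13 for Rtn4 ILMN_3140071, 0.15 for Rtn3 and 0.10 for Rtn2. In AMI mice it was 0.23 for ILMN_3115490, 0.18 for ILMN_3040710, 0.36 for ILMN_2758070, 0.20 for Rtn4 ILMN_2699645, 0.075 for Rtn3 and 0.016 for Rtn2. Array weights gave 0.087 for Rtn1 ILMN_1254697, 0.041 for Rtn4 ILMN_3140071, -0.028 for Rtn4r and -0.019 for Lingo1 in vehicle mice. The causes were not tested.

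Over each array left out, hippocampal AMI differences ran from -0.37 to 0.026 for Rtn3, -0.072 to 0.028 for Rtn1 ILMN_3040710, -0.19 to 0.16 for ILMN_3115490, -0.21 to 0.16 for ILMN_2758070, -0.30 to 0.0096 for Rtn2 and -0.18 to 0.34 for Rtn4 ILMN_1239786. Cortical ones ran from -0.26 to 0.045 for Rtn1 ILMN_3115490, -0.33 to 0.0099 for ILMN_2758070, -0.050 to 0.089 for Rtn4r, -0.23 to 0.18 for Rtn3, -0.0070 to 0.23 for Omg and -0.086 to 0.044 for Rtn2. The tissue difference in vehicle mice ran from -0.15 to 0.17 for Lingo1, -0.034 to 0.11 for Rtn4r, -0.059 to 0.28 for Rtn4 ILMN_2699645, -0.18 to 0.14 for Rtn1 ILMN_1254697 and -0.39 to 0.047 for Rtn4 ILMN_3140071. For Rtn4 ILMN_2699645 it ran from -0.057 to 0.027 in AMI mice, and the difference of the AMI response between tissues from -0.28 to 0.054.

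Signals were not background-subtracted, which lowers the fold changes of dim probes such as those of Rtn4r and Rtn4 ILMN_1239786. With 3 arrays a group, differences of the size of the standard errors could not be called. The chip as a block was not run, because the headers name no chip.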
